A study of Mus musculus with 6 samples.

Results

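The genes described here carry the stress response of the endoplasmic reticulum (ER) and the integrated stress response, and were measured by RNA sequencing of infarct tissue from mice treated with LGK974 or with DMSO. The set holds 10 genes chosen by name: Hspa5, Hsp90b1, Creld2 and Manf, whose products reside in the ER, the transcription factors Xbp1, Atf4 and Ddit3, and Trib3, Chac1 and Asns, which are targets of these factors. They were 10 of the 36047 genes to which the transcripts of the files could be assigned, and all 10 were among the 20094 genes with enough counts to be tested. Hearts of C57BL6 mice 12 weeks of age underwent temporary occlusion of the left anterior descending artery and reperfusion (I/R), and the infarct area was taken 48 h later. LGK974 inhibits Porcupine, which adds the lipid that Wnt proteins need in order to be secreted, and was given by mouth once a day to 3 mice, while 3 control mice received the vehicle DMSO. Both groups had I/R, and no uninjured heart was analysed here, so each value below compares one injured group with the other and does not show how far injury itself moved a gene.

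When unfolded proteins gather in the ER, the chaperone BiP leaves the sensors IRE1, PERK and ATF6. IRE1 cuts the Xbp1 mRNA so that it encodes an active transcription factor, ATF6 is released by proteolysis to act on chaperone genes, and PERK phosphorylates the translation factor eIF2. Phosphorylated eIF2, which other kinases also make under amino acid lack, heme lack or viral RNA, lowers protein synthesis but lets ATF4 be translated, and ATF4 with CHOP (the product of Ddit3) drives genes of amino acid supply, redox balance and cell death. Heart muscle, fibroblasts and leukocytes all use these pathways, and ischemia is one of the conditions known to engage them. Much of this control acts on translation, cutting and phosphorylation, which RNA counts do not measure.

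The promoters of the members were searched for the short elements through which these pathways are known to act. Mouse promoters of RefSeq (GRCm38.p6), from 250 bases before to 50 bases after each gene's start, were matched for 9 of the 10 members, all but Manf. The ER stress element, CCAAT followed by 9 free bases and CCACG, is bound by NF-Y and ATF6 and was searched on both strands. It stood in Hspa5, Hsp90b1 and Creld2, and in 39 of 32851 promoters in all (0.119%). The stretches below are shown because they hold this element, whose fixed letters are in capitals, each read on the strand on which the element reads forward.
Hspa5, chr2:34772020-34772049, plus strand: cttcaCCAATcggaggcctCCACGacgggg
Hsp90b1, chr10:86705632-86705661, minus strand: caagcCCAATcgcaaggagCCACGcttcgg
Hsp90b1, chr10:86705527-86705556, plus strand: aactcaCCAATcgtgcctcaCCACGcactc
Creld2, chr15:88819515-88819544, minus strand: tgtggaCCAATtgaggctcgCCACGagaag
Hsp90b1 held 2 copies in opposite orientation, at positions -212 to -194 and -107 to -89 relative to its start. The Hspa5 copy lay at -65 to -47, inside an exon of Hspa5 as GENCODE annotates it, and the Creld2 copy at -126 to -108.

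The core of the amino acid response element, TGATG, any base and AA, is bound by ATF4 with a C/EBP partner. It was found on either strand in Trib3, Chac1 and Asns and in 1304 of the 32851 promoters (3.97%). The stretches below show it, with the fixed letters in capitals.
Trib3, chr2:152344028-152344057, plus strand: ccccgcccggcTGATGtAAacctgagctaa
Chac1, chr2:119351038-119351067, minus strand: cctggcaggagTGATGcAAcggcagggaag
Asns, chr6:7693214-7693243, minus strand: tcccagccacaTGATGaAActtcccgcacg
Trib3 held its copy at 14 to 21 bases after the RefSeq start, outside the exon that GENCODE annotates, Chac1 at -193 to -186, and Asns at -23 to -16, within an exon of the annotation. No member held both elements, and Xbp1, Atf4 and Ddit3 held neither in this window. The second ER stress element, ATTGG, any base and CCACG, was in 12 promoters (0.0365%) and in 0 members. The letters CCACG alone, which the ER stress element contains, were in 6 members and in 32.8% of all promoters. These matches describe letters, not binding.

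The libraries held 41579787 to 80398211 estimated counts, of which mitochondrial genes took 28.2 to 53.7% under LGK974 and 39.3 to 42.8% under DMSO. All 13 markers of heart muscle were present, with summed levels of 10901 to 20276 TPM, a unit scaled to transcript length; 2 of the 13 were higher under LGK974, and the median log2 fold change of the 13 was -0.42. DMSO replicate 1 stood apart: olfactory, vomeronasal and bitter taste receptors, families known mainly from sensory organs though some members have been described in heart, had a median of 32.1 counts per kb of transcript there and 2.98 to 11.6 in the other 5 libraries. Results are therefore also given without it. Of 12 monocyte and macrophage markers, 12 were higher under LGK974 and 10 did not overlap between groups (summed TPM 281 to 767 against 104 to 210). Of 10 fibroblast markers, 10 were higher and 6 did not overlap (845 to 2858 against 410 to 827 TPM). Of all genes tested, 10.7% were apart upward. Higher were 2 of 6 tested neutrophil markers (median -0.13) and 6 of 9 endothelial ones (0.03). So were 5 of 7 smooth muscle and pericyte markers (0.33) and 3 of 8 tested B and plasma cell markers (-0.19). In that order, 0, 0, 0 and 1 were apart upward and 0, 1, 0 and 0 downward. By flow cytometry of whole hearts from other mice at the same time, the paper reported fewer leukocytes and inflammatory monocytes under LGK974. Macrophages and neutrophils there showed no significant difference. In bulk tissue, fewer cells of a type and less RNA per cell cannot be told apart, and the part of these markers in the results below was not tested.

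The members were read by role. The 4 genes of ER-resident products were higher under LGK974 in every library, by 1.48 to 1.76 times, whereas the transcription factors had log2 fold changes of 0.09 to 0.26 and 2 of the 3 targets of ATF4 and CHOP read lower. After Benjamini-Hochberg adjustment over all genes, edgeR (quasi-likelihood) called 0 of the 10 members, against a background of 0% of 20094 genes. At an unadjusted p under 0.05 it singled out 4 members, all higher, where 6.26% of all genes were higher and 7.18% lower at that level. Groups did not overlap in 5 members that were higher (background 10.7%) and in 1 that was lower (background 7.27%). The median log2 fold change was 0.69 for the ER-resident products, 0.25 for the transcription factors and -0.38 for the targets, beside -0.13 over all genes tested. Without DMSO replicate 1 these medians were 0.60, 0.10, -0.59 and -0.02, the last over 18547 genes, whose median with all libraries was -0.08. Few counts lie behind the median of the targets. Chac1, with 35 to 107 counts per library, was at 0.055 without DMSO replicate 2. Trib3, with 43 to 78, was at 0.0052 with counts rebuilt from TPM. The difference between the roles was not tested.

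**Figure D1:**
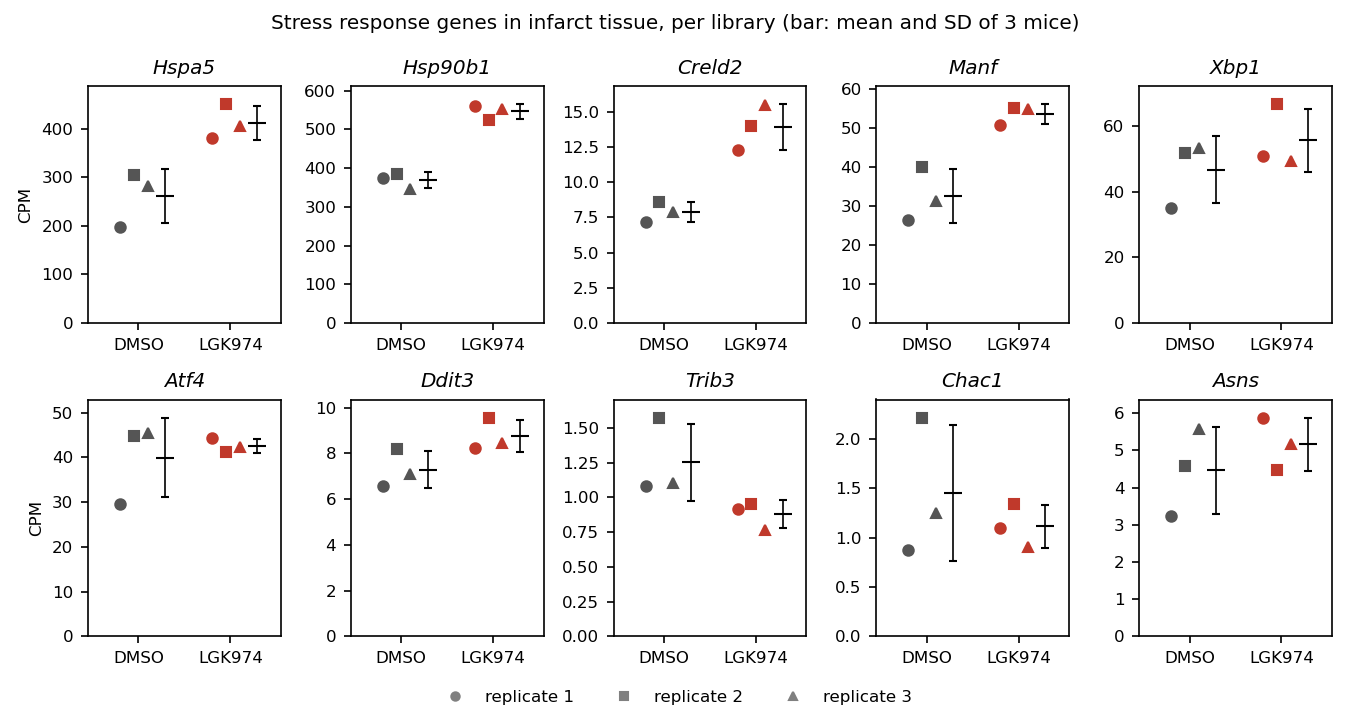
Counts relative to TMM-scaled library size (CPM, y axes from 0) of the 10 genes in the 3 DMSO libraries (gray) and 3 LGK974 libraries (red), with the replicate number as the symbol and the group mean and SD as a black bar. Hspa5, Hsp90b1, Creld2 and Manf lie higher in each LGK974 library than in any DMSO library, while Xbp1, Atf4, Chac1 and Asns overlap.

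Hspa5 (ENSMUSG00000026864.13, chr2:34771970-34777547, plus strand) encodes BiP, the most abundant ER chaperone and the brake on the stress sensors. It measured 382, 451 and 405 CPM (counts relative to the TMM-scaled size of the library) in LGK974 replicates 1, 2 and 3, and 198, 304 and 282 CPM in DMSO replicates 1, 2 and 3. The groups did not overlap, and the lowest value was that of DMSO replicate 1. With a standard error of 0.224, the log2 fold change was 0.66, from means of 413 ± 35.2 and 261 ± 56.2 CPM (SD, n = 3 each). The unadjusted p of edgeR's quasi-likelihood test was 0.0192 and the Benjamini-Hochberg adjusted p was 0.368. Without DMSO replicate 1 the log2 fold change was 0.51.

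Hsp90b1 (ENSMUSG00000020048.13, chr10:86690209-86705509, minus strand) encodes GRP94, the ER member of the HSP90 family, which folds integrins and Toll-like receptors. Its values were 560, 525 and 554 CPM under LGK974 and 374, 385 and 346 CPM under DMSO, so both groups were narrow and well apart. The difference of the means, 546 ± 18.7 against 368 ± 20.6 CPM (SD, n = 3 each), was 8.66 times the larger SD. The log2 fold change was 0.57 (SE 0.184), with an adjusted p of 0.368 in edgeR (quasi-likelihood, Benjamini-Hochberg) and 0.0183 from DESeq2, whose adjusted calls covered 0.985% of 22238 genes in the upward direction. Hsp90b1 was the 1 member that DESeq2 called. Exons of Hsp90b1 share 415 bases with 1810014B01Rik on the opposite strand, and 133 with Gm25745 and 84 with Gm15344 on the same strand, and how reads were divided there is uncertain.

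Creld2 (ENSMUSG00000023272.4, chr15:88819646-88826683, plus strand) encodes an ER protein with disulfide isomerase activity that is secreted under stress. It stood at 12.3, 14.0 and 15.5 CPM under LGK974 and at 7.19, 8.61 and 7.91 CPM under DMSO, without overlap. This was the widest relative difference among the members, a log2 fold change of 0.82 (SE 0.175), and it was 0.77 without DMSO replicate 1. The adjusted p was 0.368 in edgeR (quasi-likelihood, Benjamini-Hochberg) (unadjusted 0.00175) and 0.0505 in DESeq2.

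Manf (ENSMUSG00000032575.16, chr9:106838312-106891979, minus strand) encodes a small ER protein that binds BiP, is released when ER calcium drops and protects cells against ER stress. It measured 50.7, 55.1 and 54.9 CPM under LGK974, against 26.3, 39.9 and 31.3 CPM under DMSO. No DMSO library reached an LGK974 library. LGK974 was higher by a log2 fold change of 0.72 (SE 0.183; 0.61 without DMSO replicate 1), with an adjusted p of 0.368 in edgeR (quasi-likelihood, Benjamini-Hochberg) (unadjusted 0.00467) and 0.0546 in DESeq2. Its exons share 146 bases with Dcaf1 and 166 with 4930524O07Rik on the opposite strand and 14 with Rbm15b, and its main transcript held 35.2 to 54.3% of its counts.

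Xbp1 (ENSMUSG00000020484.18, chr11:5520659-5525893, plus strand) encodes the factor that IRE1 activates. Levels were 51.0, 66.8 and 49.5 CPM under LGK974 and 35.0, 51.8 and 53.4 CPM under DMSO. The groups overlapped, and the log2 fold change of 0.25 (SE 0.216) was 0.10 without DMSO replicate 1, the library with the lowest value. The adjusted p was 0.555 in edgeR (quasi-likelihood, Benjamini-Hochberg).

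The files do not tell IRE1-cut Xbp1 mRNA from the uncut form. None of the 4 annotated transcripts has a gap between exons under 50 bases, the shortest being 300 bases. So none is annotated with the short gap that the IRE1 cut would leave. Whether each of the 4 holds the stretch that IRE1 removes was not checked. The main transcript, Xbp1-201, held 90.4, 91.5 and 93.5% of Xbp1 counts under LGK974 and 88.5, 91.6 and 91.5% under DMSO. The difference of 1.30 percentage points gave p = 0.5 in an exact two-sided permutation test (0.9 after Benjamini-Hochberg adjustment over 4 transcripts; 3 against 3 mice cannot give less than 0.1). For the 3 other transcripts the exact permutation test gave p = 0.9, 0.3 and 0.7.

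Atf4 (ENSMUSG00000042406.8, chr15:80255184-80257541, plus strand), the central factor of the integrated stress response, is controlled mainly through translation of its mRNA. It measured 44.2, 41.1 and 42.3 CPM under LGK974 and 29.7, 44.8 and 45.3 CPM under DMSO. DMSO replicate 1 was low, and the other 2 DMSO libraries lay above all LGK974 libraries. The log2 fold change of 0.09 (SE 0.193) thus turned to -0.07 without that library. The adjusted p was 0.826 in edgeR (quasi-likelihood, Benjamini-Hochberg).

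Ddit3 (ENSMUSG00000025408.15, chr10:127290774-127296288, plus strand) encodes CHOP, which promotes cell death under lasting stress. Its values were 8.25, 9.55 and 8.47 CPM under LGK974 and 6.59, 8.19 and 7.10 CPM under DMSO. The groups did not overlap, but the closest libraries nearly touched. Its log2 fold change was 0.26 (SE 0.186; 0.21 without DMSO replicate 1), with an adjusted p of 0.489 in edgeR (quasi-likelihood, Benjamini-Hochberg). When counts were rebuilt from TPM, the Ddit3 groups overlapped. Ddit3 shares 68 exon bases with Mars on the opposite strand.

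Trib3 (ENSMUSG00000032715.9, chr2:152337422-152344032, minus strand) encodes a pseudokinase that restrains AKT and is induced by ATF4 and CHOP. It measured 0.919, 0.952 and 0.767 CPM under LGK974 and 1.08, 1.57 and 1.11 CPM under DMSO, and so was the 1 member lower in every LGK974 library. These were 43 to 78 counts per library. The log2 fold change of -0.51 (SE 0.50) had an adjusted p of 0.609 in edgeR (quasi-likelihood, Benjamini-Hochberg). With counts rebuilt from TPM it was 0.0052, and the groups overlapped, as they did with no filter on low counts.

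Chac1 (ENSMUSG00000027313.3, chr2:119351229-119354381, plus strand) encodes an enzyme that breaks down glutathione and is a target of ATF4. Its values were 1.095, 1.34 and 0.908 CPM under LGK974 and 0.880, 2.21 and 1.25 CPM under DMSO. Both the lowest and the highest library belonged to the DMSO group. The log2 fold change was -0.38 (SE 0.528), -0.61 without DMSO replicate 1 and 0.06 without DMSO replicate 2, so its direction rested on a single library. The adjusted p was 0.726 in edgeR (quasi-likelihood, Benjamini-Hochberg).

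Asns (ENSMUSG00000029752.12, chr6:7675169-7693254, minus strand) encodes asparagine synthetase. It stood at 5.88, 4.46 and 5.17 CPM under LGK974 and at 3.24, 4.57 and 5.58 CPM under DMSO. The groups overlapped in part, with the highest value in LGK974 replicate 1 and the lowest in DMSO replicate 1. Its log2 fold change was 0.21 (SE 0.277) and 0.05 without DMSO replicate 1, with an adjusted p of 0.707 in edgeR (quasi-likelihood, Benjamini-Hochberg).

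**Figure D2:**
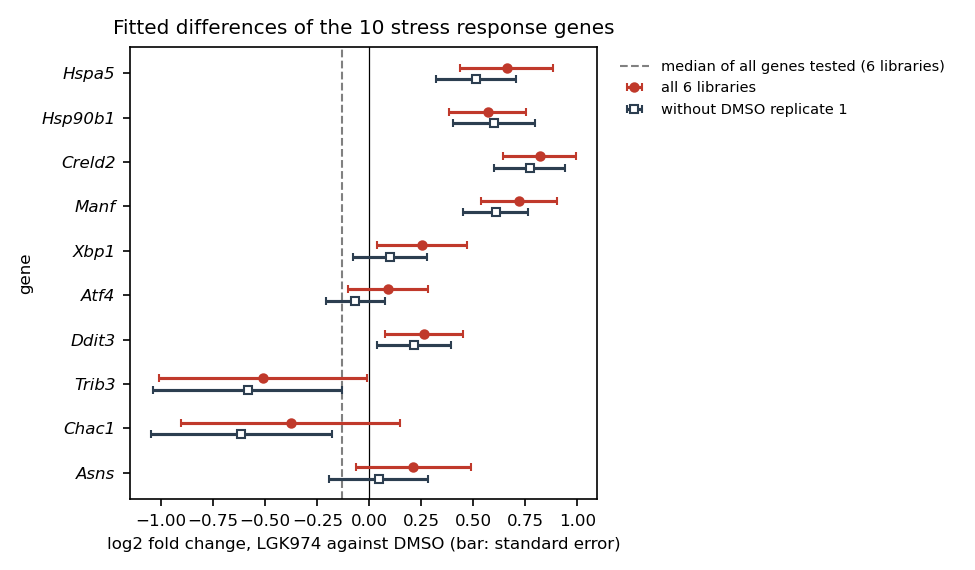
Fitted log2 fold change of LGK974 against DMSO (x axis) for each gene, with its standard error, from all 6 libraries (red circles) and without DMSO replicate 1 (open squares); the dashed line is the median of all genes tested, -0.13. The 4 ER-resident products lie from 0.57 to 0.82 with all libraries, and Atf4 changes sign when DMSO replicate 1 is left out.

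Trib3 and Chac1 were the lowest members, and in DMSO replicate 1 they lay below the receptor genes named above. Trib3 had 21.2 and Chac1 21.4 counts per kb there, against a receptor median of 32.1. In the other 5 libraries, where the receptor median was 2.98 to 11.6, both lay above it, Trib3 at 22.2 to 38.5 and Chac1 at 31.2 to 65.4 counts per kb. Asns, at 64.0 to 248 counts per kb, and Ddit3, at 270 to 722, were above the receptor median in each library. What gave the receptor counts was not tested, and the fold changes of Trib3 and Chac1 include any such counts.

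**Figure D3:**
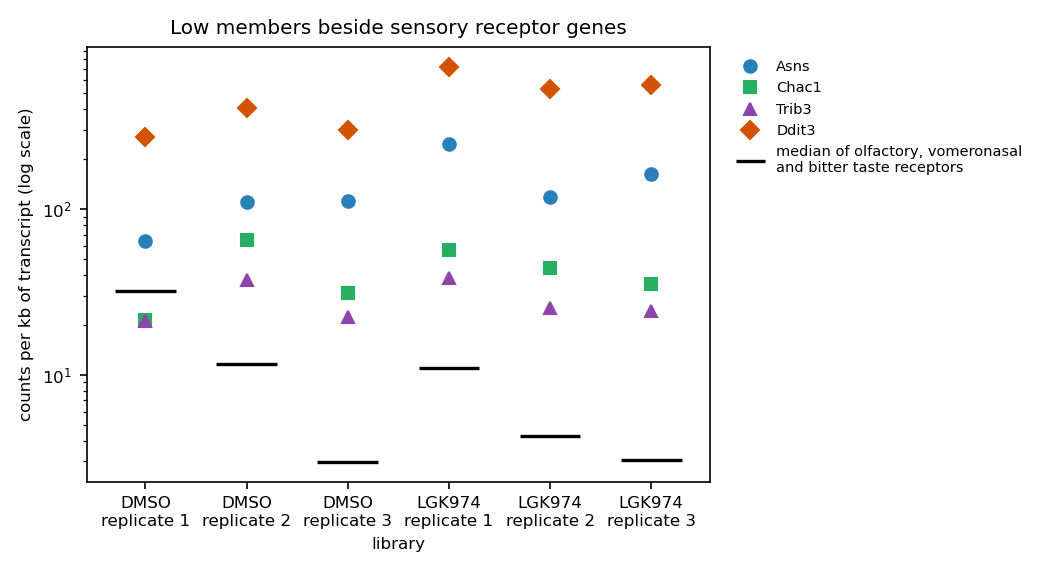
Counts per kb of transcript (log axis) of Ddit3, Asns, Chac1 and Trib3 in each library, with the median of 1501 olfactory, vomeronasal and bitter taste receptor genes as a black line. In DMSO replicate 1 that median, 32.1, is above Chac1 and Trib3, and in the other 5 libraries it is below them.

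In TPM, a unit per transcript length and library total, the members spanned a wide range. Hspa5 and Hsp90b1 led in both groups, at 285 ± 98.9 and 231 ± 99.4 TPM under LGK974 and 147 ± 58.4 and 118 ± 21.3 TPM under DMSO (SD, n = 3). Manf followed at 99.8 TPM under LGK974 and 46.6 under DMSO, then Xbp1 (34.1 and 23.8), Atf4 (29.9 and 22.3), Ddit3 (15.4 and 10.5), Creld2 (13.3 and 5.73) and Asns (4.10 and 3.02). Trib3 and Chac1 came last at 0.803 to 0.881 TPM. Neighbours in this order mostly overlapped when the lowest library of one was set against the highest of the next in a group. Within each library, Hsp90b1 lay above Manf and Xbp1 above Atf4, while Hspa5 lay above Hsp90b1 in all but DMSO replicate 1. These sums include short transcripts: Hspa5-204, of 477 bases, gave 28.9 to 149 TPM, and Manf-205, of 502 bases, 11.2 to 79.5 TPM. The main transcript Hspa5-202 had 139, 114 and 238 TPM under LGK974 and 47.2, 101 and 97.8 TPM under DMSO. Hsp90b1-201 had 208, 139 and 330 against 90.4, 131 and 123 TPM, above Hspa5-202 in each library. The order of these genes thus depends on the short transcripts. The steps without overlap were Manf to Xbp1, Creld2 to Asns and Asns to the last 2 genes under LGK974, and Hsp90b1 to Manf, Ddit3 to Creld2, Creld2 to Asns and Asns to Chac1 under DMSO. TPM is not corrected for the share of mitochondrial counts, so these levels order genes within a group.

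A ratio within a library needs no scaling between libraries, and Atf4 was taken as its base after the values had been seen. Per Atf4 count, Hspa5 had 8.64, 10.98 and 9.59 counts under LGK974 and 6.67, 6.79 and 6.21 under DMSO. Manf had 1.15, 1.34 and 1.30 counts per Atf4 count under LGK974 and 0.888, 0.889 and 0.692 under DMSO. Neither gene overlapped between groups, nor did Creld2 (0.278 to 0.367 against 0.175 to 0.242). Hsp90b1 had 12.7 to 13.1 under LGK974 and 12.6, 8.60 and 7.63 under DMSO, so DMSO replicate 1 nearly met the LGK974 group. Xbp1 and Ddit3 overlapped on this scale.

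The other genes of the ER branch were read from lists of known function. Of 26 ER chaperones and folding enzymes, 24 were higher under LGK974, 14 of them and 0 of the lower ones at an unadjusted p under 0.05, and 17 did not overlap between groups (65.4%, against 10.7% of all genes). None passed the adjusted threshold of edgeR's quasi-likelihood test, while DESeq2 called 3, Pdia3, Pdia4 and Pdia6. The list had a median log2 fold change of 0.41, and 0.39 without DMSO replicate 1, when 12 had an unadjusted p under 0.05 and 20 did not overlap. With a library left out, groups stand apart more readily, so counts of genes apart with and without it are not on the same scale. Pdia4, a protein disulfide isomerase, measured 80.2, 72.2 and 85.2 CPM under LGK974 and 36.5, 51.7 and 47.6 CPM under DMSO (log2 fold change 0.81, SE 0.18). Pdia3, the isomerase that works with calnexin and calreticulin on glycoproteins, measured 317, 280 and 338 against 155, 201 and 184 CPM (0.79, SE 0.19). Calr, the calcium-binding chaperone calreticulin and the highest of the list per length, measured 340, 294 and 423 against 185, 250 and 233 CPM (0.66, SE 0.22). All 3 were apart between the groups. The macrophage and fibroblast markers given above were higher in the same 3 libraries as this list, and their part in it was not tested. The level of a gene bears on these shares: among the 8127 genes with a mean of at least 10 CPM, a limit set after the values were seen, 18.8% did not overlap and were higher, 12.0% were higher at an unadjusted p under 0.05, and the median was 0.06.

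The ER stress element is shared by part of this list. It stood in Calr, Canx, Pdia6 and Ero1b, of 22 listed genes with a promoter in the table. Over all tested genes that hold it, members left out, 10 were higher and 11 lower, with 5 apart upward and 1 apart downward, and the median log2 fold change of these 21 was -0.06. Without DMSO replicate 1, 15 of them had enough counts to be tested, with a median of 0.32, and the same 15 had a median of 0.34 with all libraries. Those not tested without that library were Tdrd9, Calr4, Esp15, Esp16, Esp18 and Esp36. With all libraries each of these read lower, at log2 fold changes of -3.27 to -2.12, from only 0 to 100 counts per library. The amino acid response core, in turn, was held by 477 tested genes beside the members, of which 165 were higher and 312 lower, with a median of -0.30. Over all genes tested, 8130 were higher and 11964 lower, with a median of -0.13. Of the 477, 56 (11.7%) were apart upward and 41 downward, beside 10.7% and 7.27% of all genes. For the 435 also tested without DMSO replicate 1, the median was -0.20 with all libraries and -0.04 without it.

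Genes that move proteins into the ER and clear them from it leaned the same way with smaller differences. Of 25 translocation genes, 23 were higher, 5 (20.0%) with an unadjusted p under 0.05 and 8 (32.0%) without overlap. Among all genes the upward shares were 6.26% and 10.7%, and among the 8127 of at least 10 CPM they were 12.0% and 18.8%. The median log2 fold change of the list was 0.20. Spcs3, a signal peptidase subunit (0.75, SE 0.22), Ssr1, a translocon-associated protein (0.55, SE 0.18), and Srpr, the receptor of the signal recognition particle (0.34, SE 0.17), were each without overlap. Of 22 genes of ER-associated degradation, 19 were higher, 3 (13.6%) with an unadjusted p under 0.05 and 6 (27.3%) without overlap. The first of these shares was near the 12.0% among those 8127 genes. The list median was 0.21, and 0.10 without DMSO replicate 1. The 3 lower genes included Herpud1 (-0.70, SE 0.38, with overlap), whose promoter held the second ER stress element and the amino acid response core. Edem1, a lectin that hands misfolded glycoproteins to degradation, had 44.6, 44.1 and 48.7 CPM against 24.1, 32.3 and 30.7 CPM (log2 fold change 0.66, SE 0.16). Selenos, an ER membrane selenoprotein of the same machinery, also stood apart (0.42, SE 0.15), whereas Vcp, the ATPase that extracts proteins from the ER, overlapped (0.08, SE 0.21).

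The count of sensors that stood apart was read with and without DMSO replicate 1, though groups of fewer libraries stand apart more readily. Of 14 sensors and activating proteases, 10 were higher and 4 lower, 1 (7.14%) had an unadjusted p under 0.05 and 1 (7.14%) did not overlap (median 0.13). Among all genes the upward shares were 6.26% and 10.7%, and among the 8127 genes of at least 10 CPM 12.0% and 18.8%. Without DMSO replicate 1, 3 stood apart upward and 1 downward, with 2 higher and 1 lower at an unadjusted p under 0.05 (median 0.12). Counts also rose among genes with the amino acid response core, members left out. They went from 56 of 477 apart upward and 41 downward to 86 of 435 and 50. With all libraries, the gene at that p was Creb3l1, a membrane-bound factor related to ATF6 and known for its role in collagen production, with a log2 fold change of 0.58 (SE 0.21) and overlapping groups. The gene without overlap there was its relative Creb3 (0.32, SE 0.15). The gene that was lower at an unadjusted p under 0.05 without DMSO replicate 1 was the sensor Atf6. Its log2 fold change was -0.54 (SE 0.27) with all libraries and -0.66 without DMSO replicate 1. Atf6 measured 96.7, 125 and 68.1 CPM under LGK974 and 111, 133 and 177 CPM under DMSO. Eif2ak2, the kinase PKR and the highest of this list per length, was at -0.05 (SE 0.33) with all libraries and 0.44 without DMSO replicate 1. Among 11 genes of eIF2, its exchange factor and its phosphatase, 10 were higher. Of the 11, 2 (18.2%) were higher at an unadjusted p under 0.05 and 4 (36.4%) were apart upward (median 0.21). Without DMSO replicate 1 there were 1 and 4 such genes (median 0.12). The 2 with all libraries were Eif2s1, the subunit that is phosphorylated (65.3, 62.5 and 67.5 against 41.7, 48.7 and 48.3 CPM), and Dnajc3, an ER co-chaperone known as p58IPK (63.5, 67.6 and 70.0 against 40.3, 54.1 and 54.3 CPM). Eif2s2, the highest of the list per length, overlapped (0.09, SE 0.16).

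The ATF4 branch was mixed. Of 8 further transcription factors of the integrated stress response, 5 were higher and 3 lower (median 0.15, and 0.02 without DMSO replicate 1). At an unadjusted p under 0.05, 2 (25.0%) were higher, and 3 (37.5%) were apart upward. Upward shares of all genes were 6.26% and 10.7%, and of the 8127 genes of at least 10 CPM 12.0% and 18.8%. Atf3, induced by ATF4 and by inflammation, measured 7.70, 7.15 and 8.99 CPM under LGK974 and 2.64, 4.84 and 4.94 CPM under DMSO (log2 fold change 0.94, SE 0.29). Nupr1, a small chromatin protein of stressed cells, measured 9.13, 11.2 and 12.9 against 7.49, 4.92 and 8.20 CPM (0.69, SE 0.25). Both were apart between groups, as was Nfe2l2, the antioxidant factor NRF2 (0.33, SE 0.17). Of 16 tested ATF4 targets in stress signalling, 7 were higher and 9 lower, with a median of -0.08. Apart upward were 3 (18.8%), a share near that of the 8127 genes, and 0 were apart downward. Without DMSO replicate 1, 1 stood apart downward and the median was 0.05. Rab32, a small GTPase found at mitochondria and lysosome-related organelles, had a log2 fold change of 0.87 (SE 0.24) without overlap. Ddit4, the mTORC1 inhibitor REDD1, which hypoxia and glucocorticoids also induce, had 29.95, 21.03 and 15.5 CPM against 29.6, 45.5 and 56.8 CPM (-0.99, SE 0.31), and LGK974 replicate 1 met DMSO replicate 1. Vegfa, the angiogenic growth factor and the highest of the list per length, overlapped (-0.26, SE 0.26).

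Amino acid supply is the best known output of ATF4. Of 14 genes of amino acid synthesis and one-carbon metabolism, 7 were higher and 7 lower, 2 of the lower ones had an unadjusted p under 0.05, and the median was -0.04. At that level, 7.18% of all genes were lower. Pycr1, the last enzyme of proline synthesis, measured 3.53, 3.53 and 3.51 CPM under LGK974 and 8.87, 6.31 and 4.89 CPM under DMSO, without overlap (log2 fold change -0.92, SE 0.27; -0.65 without DMSO replicate 1). Cbs, of transsulfuration, was at -1.07 (SE 0.46) but at -0.33 without DMSO replicate 1, and Got1, the cytosolic aspartate aminotransferase, overlapped (-0.39, SE 0.28). Of 11 amino acid transporters, 8 were higher, 0 with an unadjusted p under 0.05 and 2 (18.2%) without overlap (median 0.24). Without DMSO replicate 1 there were 1 and 3 such genes and the median was 0.13. The cystine carrier Slc7a11 had a log2 fold change of -1.24 (SE 0.54) with all libraries and of -0.29 without DMSO replicate 1, where it measured 53.6 CPM against 9.70 to 19.2 CPM in the other 5 libraries. Slc3a2, its heavy chain, was higher without overlap (0.36, SE 0.16), and the neutral amino acid carrier Slc38a2 overlapped (0.31, SE 0.24). Of 14 tRNA synthetase genes, 13 were higher, with a median of 0.20 and of 0.08 without DMSO replicate 1. At an unadjusted p under 0.05 there were 0, and 2 (14.3%) were apart upward and 1 downward. Of all genes, 10.7% were apart upward, and of the 8127 with a mean of at least 10 CPM 18.8%. The amino acid response core stood in 5 of the 9 synthetase genes with a promoter searched. Tars and Aars, which charge threonine and alanine, were apart (0.37, SE 0.17, and 0.34, SE 0.16), and Sars, which charges serine, overlapped (0.08, SE 0.21).

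**Figure D4:**
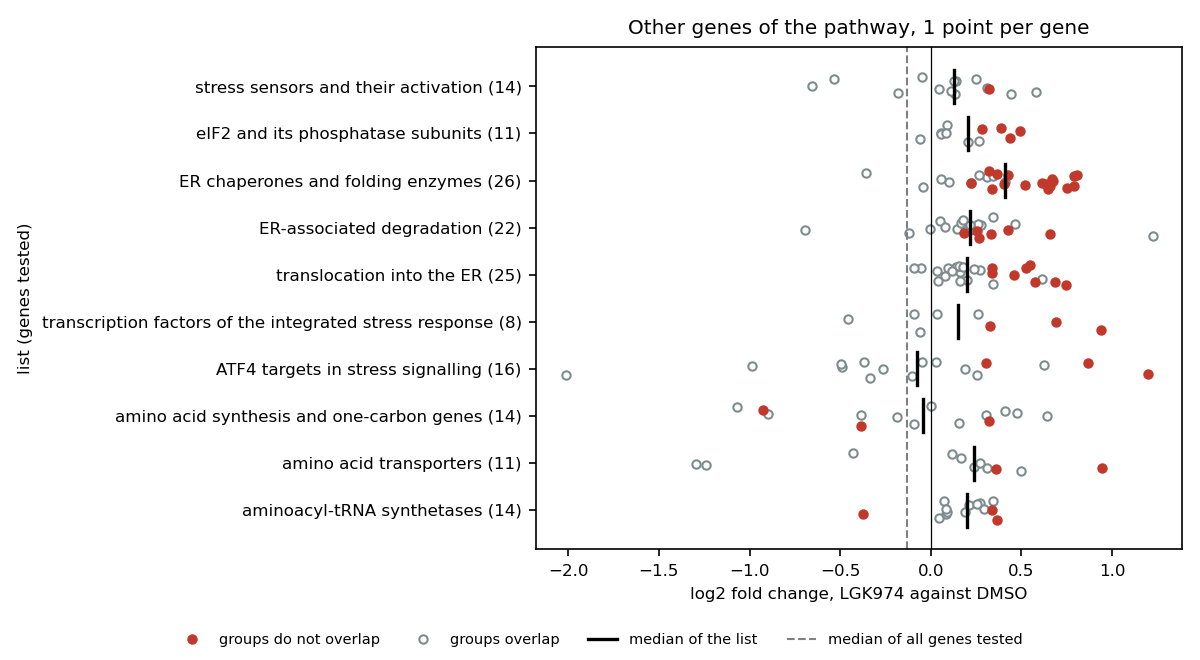
Log2 fold change of LGK974 against DMSO (x axis) for each tested gene of 10 lists, members left out; filled points did not overlap between the groups, black bars are list medians and the dashed line is the median of all genes tested, -0.13. The chaperone list has the highest median, 0.41, and the lists of ATF4 targets and of amino acid synthesis lie around 0.

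Over all 10 lists, 126 of 161 tested genes were higher, beside 8130 of all 20094 genes tested. Of the 161, 47 (29.2%) did not overlap upward and 3 downward, beside 10.7% and 7.27% of all genes. Among the 8127 genes with a mean of at least 10 CPM, 58.0% were higher, 18.8% apart upward and 4.72% apart downward. Without DMSO replicate 1 the medians of the chaperone and translocation lists, 0.39 and 0.22, stood farthest from that of all genes, -0.02.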

How the data were processed

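Infarct RNA of 3 LGK974 and 3 DMSO mice was sequenced. The authors ran Kallisto against an Ensembl transcript index of GRCm38 and deposited estimated counts and TPM values for 118489 transcripts per library. Strand was not stated, and reads shared by similar or overlapping genes were divided by estimation. Here, 98.6% of transcripts were joined to GENCODE genes, and estimated counts were summed and rounded. Genes reaching 10 counts in 3 or more libraries entered the quasi-likelihood test of edgeR 4.0.16 (R 4.3.3; TMM factors 0.816 to 1.40, treatment as the only term, Benjamini-Hochberg over all genes, threshold 0.05; a standard error is the log2 fold change over the root of F); DESeq2 1.42.0 was an alternative. CPM used TMM-scaled library sizes, and TPM were summed per gene. The tests were tested on simulated data. Motifs were searched with Python 3.11.15 in RefSeq promoters. Other alternatives were the scaling, the filter, the replicate block, counts rebuilt from TPM, mitochondrial genes or non-coding genes left out, and each library left out. Of each list, the 2 genes with the smallest p and the one with the highest TPM are named. Herpud1 and Atf6 are named besides, after their values were seen. The members and lists were chosen with earlier results of these data known. Protein sequences were not used here.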

Additional observations from a re-analysis of the deposited data

How the results depend on the processing

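The 4 ER-resident products, Hspa5, Hsp90b1, Creld2 and Manf, were higher under LGK974 and did not overlap between groups in each of the 13 alternatives, with log2 fold changes of 0.51 to 0.96. Over all genes, edgeR (quasi-likelihood, Benjamini-Hochberg) called 0 genes (2699 at an unadjusted p under 0.05), DESeq2 315, edgeR with no filter on low counts 1206, and the fits that each left out 1 library 0 to 2. DESeq2 called 1 member, Hsp90b1 (log2 fold change 0.60, adjusted p = 0.0183), and edgeR's test with no filter called 1, Creld2 (0.96, adjusted p = 0.0386); the other alternatives called 0, and the cause of these differences was not tested. Of 130 member values under the alternatives, 127 kept their sign. Those that did not were Atf4, which ranged from -0.067 (without DMSO replicate 1) to 0.29 with 1 library left out, Chac1, from -0.61 to 0.055 (without DMSO replicate 2), and Trib3, 0.0052 with counts rebuilt from TPM. The median over the 10 members, 0.26, ranged from 0.16 to 0.49 with 1 library left out, being highest without DMSO replicate 3. Members without overlap numbered 6, 5 with no filter and 4 with counts rebuilt from TPM. Xbp1 did not overlap without LGK974 replicate 3, nor did Asns without DMSO replicate 3. With the replicate block, 0 genes were called (3312 at an unadjusted p under 0.05); adjusted p-values of edgeR's test were 0.141 for Creld2, 0.144 for Manf, 0.241 for Hspa5 and 0.335 for Hsp90b1. The deviations of libraries with the same number correlated at 0.475, -0.048 and 0.391, with a mean of 0.273. Libraries with different numbers had a mean of -0.136. The values 0.475 and 0.391 lay above every value for different numbers, and -0.048 did not. Whether the numbers pair the mice was not tested, and the main fit did not use them. The common dispersion was 0.238, and 0.0825 without DMSO replicate 1. Trib3 and Chac1, with 35 to 107 counts per library, are also limited by depth.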
